A study of Homo sapiens with 48 samples.

Results

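Cells given the photocaged probe without light were compared with cells given only the vehicle DMSO, 12 h after the treatment. The comparison used 8 of the 48 libraries of the series, 4 per arm, and all 14685 genes of the count table. All arms were HEK293T cells, a human embryonic kidney line that carries a viral large T antigen, and all had been transfected with a plasmid for NCBP1 fused to Halo, a protein tag that binds chloroalkane ligands covalently. The probe, Ht-PreHNE, is a Halo ligand that holds the lipid-derived electrophile HNE in caged form. In the probe alone arm it was bound to the fusion protein and no light was given, whereas the DMSO arm received neither probe nor light. The other arms at 12 h, T-REX (probe and light) and light alone, entered the fit to estimate the spread of each gene. Their levels for some genes, and their medians for some lists, are given beside the others without a test. The label of the light alone arm names only UV, while the study's methods list the probe for it as well. Whether these cells had received the probe is therefore unclear. The design text gives 4 independent biological replicates per arm. The libraries describe transiently transfected cultures of 1 cell line, and plasmid and chromosomal NCBP1 reads were not separated.

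NCBP1 encodes CBP80, a subunit of the complex in the nucleus that holds the cap of new RNA polymerase II transcripts and links it to splicing, export and decay. The probe alone arm is a technical control, in which the electrophile is present in caged form. Compared with DMSO, it asks what the bound ligand does to RNA levels when no light releases its cargo. HNE itself is known as an inducer of antioxidant, heat shock and unfolded protein genes, and retinoid and sterol genes respond to lipid ligands.

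At 12 h, 256 genes (1.74%) were higher and 495 (3.37%) were lower with the probe alone than with DMSO, together 5.11% of the genes tested (edgeR quasi-likelihood test, Benjamini-Hochberg adjusted p at most 0.05; such genes are termed called). An unadjusted p at most 0.05 was found for 3422 genes. Levels are given in CPM, counts relative to the library total after scaling for composition, and differences as log2 fold changes with their standard error (SE). The changes were small. The median log2 fold change was 0.38 among the genes called higher and fell by 0.28 among those called lower, against 0.0026 over all genes. A log2 fold change of at least 0.5 was reached by 75 of the genes called higher, and 26 of the genes called lower were at or below -0.5. In 628 of the 751 called genes the 4 probe libraries did not overlap the 4 DMSO libraries, a state met by 9.69% of all genes.

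**Figure D1:**
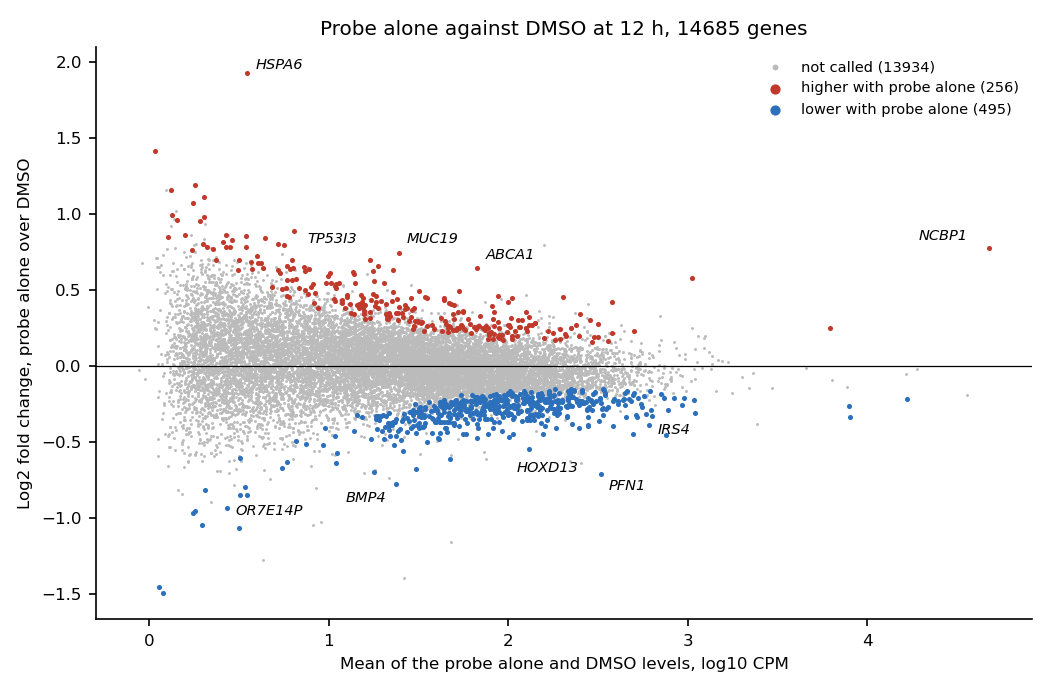
Each point is 1 of 14685 genes, with its mean level in the probe alone and DMSO arms on the x axis (log10 CPM) and its log2 fold change, probe alone over DMSO at 12 h, on the y axis. The 256 genes called higher are red, the 495 called lower are blue, and HSPA6 lies highest at 1.93 while the abundant NCBP1 lies at 0.77.

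The libraries of these arms held 26871718 to 30593868 counts. The DMSO replicates were spread more widely than those of the other arms. The median SD of a gene's log2 level was 0.143 in DMSO, 0.0875 in probe alone, 0.0743 in light alone and 0.0781 in T-REX. DMSO replicate 3 lay farthest from the others, and without it the DMSO value was 0.0997. Only 14 genes were called when the fit held the 8 libraries alone, and leaving out 1 of the 8 gave 325 to 1758 called genes. Among the 751 called genes, 206 (52 higher and 154 lower) were called in all 8 of those fits, and no called gene changed sign in any fit. Those fits kept the light alone and T-REX libraries, which also set the spread. With the 8 libraries alone 14 of the 206 were called. Of 11 markers of renal progenitor, neurofilament and epithelial genes chosen for HEK293T, 9 were in the table, and their summed level was 313.6 to 333.6 CPM with the probe and 322.3 to 366.1 CPM with DMSO. PAX2 and EPCAM were not among them, and 1 of the 9, the neurofilament gene NEFL, was lower (log2 fold change -0.26, edgeR adjusted p = 0.0144, and 0.0502 without probe replicate 2). No endothelial, blood or liver marker was in the table, and the 1 fibroblast marker present was at 3.43 to 5.27 CPM. Of 4 neuron markers 2 were in the table, neither of them called, with a summed level of 31.08 to 37.23 CPM with the probe and 31.06 to 33.41 CPM with DMSO.

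NCBP1, the transfected gene, was higher with the probe alone. Its level was 54596, 57872, 54206 and 75762 CPM in the 4 probe libraries and 31488, 36541, 32400 and 41334 CPM in the 4 DMSO libraries. The arms did not overlap, and probe replicate 4 stood above the other 3. The log2 fold change was 0.77 ± 0.13 (SE, n = 4 per arm, edgeR adjusted p = 0.00541), or 1.71-fold. NCBP1 took 6.03% ± 1.01 (SD, n = 4) of all counts with the probe and 3.51% ± 0.505 (SD, n = 4) with DMSO (two-sided exact permutation test, p = 0.0286, the smallest p that 4 against 4 allows, and 0.0858 adjusted over 6 shares). At the same time the mean level was 58794 CPM in T-REX and 41352 CPM in light alone. Beside NCBP1 the cap-binding list of 12 genes held 1 other called member, KPNA2, an importin adaptor (log2 fold change -0.18, adjusted p = 0.0237), whose call was lost without probe replicate 2 (edgeR adjusted p = 0.0625) or 4 (0.0664).

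After adjustment none of the 6 shares passed the test. Mitochondrially encoded genes took 8.5% ± 0.552 of counts with the probe and 9.28% ± 0.645 with DMSO (SD, n = 4, exact permutation p = 0.143). Small structured RNAs took 0.219% ± 0.0295 and 0.176% ± 0.021 (exact permutation p = 0.0571). The 10 highest genes took 17.8% with the probe and 16.4% with DMSO, a difference of 1.48 percentage points (exact permutation p = 0.0286, adjusted 0.0858), which became -0.748 when NCBP1 was left out (exact permutation p = 0.114).

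HSPA6 encodes an inducible HSP70 chaperone that unstressed cells hardly express. Its level was 3.73, 5.24, 5.49 and 7.86 CPM with the probe and 2.47, 1.22, 0.507 and 1.58 CPM with DMSO. Every probe library was above every DMSO library, but the values rest on 110 to 218 and 13 to 72 counts. The log2 fold change was 1.93 ± 0.35 (SE, edgeR adjusted p = 0.00567), and it was called in all 8 leave-one-out fits. The mean was 4.57 CPM in T-REX and 1.81 CPM in light alone. Reads of HSPA6 cannot be told apart with certainty from those of its near-identical copy HSPA7. The stretch before its start is shown because it holds the binding motif of heat shock factors, GAANNTTC or TTCNNGAA (capitals, both orders searched on both strands, RefSeq sequence, GRCh38.p14, chr1:161524330-161524508, plus strand).
HSPA6: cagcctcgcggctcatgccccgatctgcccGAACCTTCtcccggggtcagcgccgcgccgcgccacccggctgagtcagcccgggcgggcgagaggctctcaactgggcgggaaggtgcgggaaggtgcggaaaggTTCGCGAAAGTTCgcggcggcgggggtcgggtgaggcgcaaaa
There were 3 matches between 180 and 62 bases before the start, of which a pair overlapped. One or more matches were found in 11.6% of 35116 such windows of 250 bases.

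HSPA6 was not in the heat shock list. Of its 20 members tested, 1 was higher and none was lower (5% called, beside 5.11% of all genes), with a median log2 fold change of 0.0614. The called member was DNAJB1, an HSP40 co-chaperone, at 125.6 CPM against 101.7 CPM (log2 fold change 0.30, adjusted p = 0.0184), and its call was lost without probe replicate 4 (edgeR adjusted p = 0.0697) or DMSO replicate 2 (0.0517). Among genes tied to electrophile defence none was called higher. Of 24 genes of NRF2 and thiol defence none was higher and 2 were lower (8.33% called), with a median of 0.0075. These were PRDX1, a peroxiredoxin (-0.26, adjusted p = 0.0177), and TXNRD1, a thioredoxin reductase (-0.18, adjusted p = 0.0476). Among 18 enzymes that clear aldehydes and HNE, 1 was lower (5.56% called), the carbonyl reductase CBR1 (-0.35, adjusted p = 0.0285). PRDX1 lost its call without probe replicate 4 (edgeR adjusted p = 0.0652) or DMSO replicate 2 (0.0557). TXNRD1 lost it in every fit but that without DMSO replicate 4, and CBR1 kept it only without probe replicate 3 or DMSO replicate 4. The unfolded protein response list (26 tested) and the integrated stress response list (32 tested) each held 1 called gene, which was lower. This was 3.85% and 3.12% called, beside 5.11% of all genes. Most members leaned the other way, with 22 and 24 positive and medians of 0.0855 and 0.0995, where 50.52% of all genes were positive. With the GC and length trend of each library removed, 7 genes of the former list were called higher and 1 lower. In the latter list 1 was then called higher and 1 lower. That fit called 509 of all 14685 genes higher and 832 lower.

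Several cholesterol genes were higher. Synthesis of sterols and uptake of lipoproteins are switched on by SREBP2 when membrane sterol is low, whereas export is switched on by the oxysterol receptor LXR. Of 27 sterol genes 3 were higher and none was lower (11.1% called, beside 5.11% of all genes called and 1.74% called higher), 23 were positive, and the median log2 fold change was 0.17. Over all genes 50.52% were positive. The median of the sterol list against DMSO was -0.0459 in light alone and -0.0404 in T-REX. HMGCS1, which makes HMG-CoA for the mevalonate route, stood at 143.8, 137.7, 150.4 and 135.7 CPM against 119.2, 118.7, 130.8 and 102.6 CPM. All 4 probe libraries were above the DMSO ones (log2 fold change 0.27 ± 0.063, SE, edgeR adjusted p = 0.0155), and the gene was called in all 8 leave-one-out fits. With the 8 libraries alone no sterol gene was called. SREBF2, which encodes SREBP2 itself, was higher as well (0.28, adjusted p = 0.0371), and its call was lost in 5 of those 8 fits, without any 1 of the probe libraries or DMSO replicate 2, with an adjusted p up to 0.114.

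IDI1 and INSIG1, further sterol genes, did not pass the test at 12 h. IDI1, an isomerase of the mevalonate route, was at 166.6 to 177.9 CPM with the probe and at 133.8 to 173.1 CPM with DMSO (log2 fold change 0.17, adjusted p = 0.0973). INSIG1, which retains SREBP precursors in the endoplasmic reticulum, was at 168.7 to 189.4 CPM and 138.9 to 174.9 CPM (0.19, adjusted p = 0.065). In both genes DMSO replicate 3 was the library that overlapped the probe arm. Without it both were called, at an adjusted p of 0.00698 and 0.00337 (edgeR).

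ABCA1 was higher as well. It encodes the membrane pump that loads cellular cholesterol onto lipoproteins. Its level was 76.4, 76.6, 74.3 and 101.3 CPM with the probe and 48.3, 51.1, 55.0 and 55.6 CPM with DMSO. The arms were far apart and probe replicate 4 was highest. The log2 fold change was 0.65 ± 0.096 (SE, edgeR adjusted p = 0.00108), and ABCA1 was called with the 8 libraries alone and in all 8 leave-one-out fits. The mean was 73.9 CPM in T-REX and 51.3 CPM in light alone. The stretch before its start is shown because it holds the pair of half-sites bound by LXR (capitals, TGACC and TAACC with 5 bases between, both strands searched, RefSeq, GRCh38.p14, chr9:104928180-104928254, minus strand).
ABCA1: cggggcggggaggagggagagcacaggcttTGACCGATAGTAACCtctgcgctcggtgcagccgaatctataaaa
The letters searched were those of the ABCA1 stretch itself, so ABCA1 had to match. They were present with this spacing in 0.0484% of the 35116 windows. Other forms of the half-sites were not searched, so this is not the share of windows with an LXR site.

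**Figure D2:**
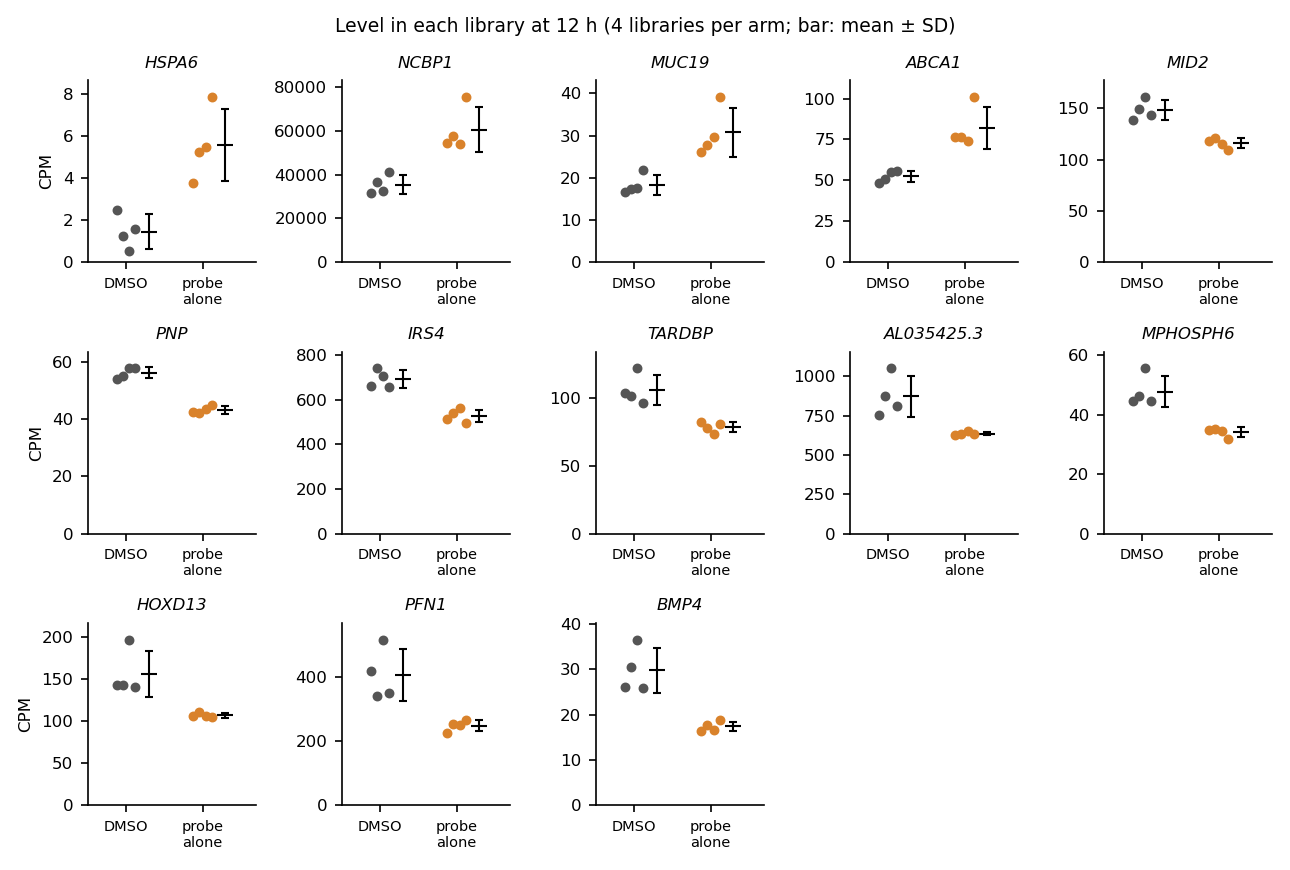
CPM in each library for 13 of the 14 genes that were called in the fit of all 16 libraries, in the fit of the 8 libraries compared and in each of the 8 fits without 1 of these libraries. Points are the 4 DMSO (grey) and 4 probe alone (orange) libraries and the bar is the mean ± SD. HSPA6, NCBP1, MUC19 and ABCA1 were higher and the other 9 lower with the probe, with no overlap in any panel.

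The remaining gene of the 4 that were higher with the 8 libraries alone and in all 8 leave-one-out fits was MUC19, a gel-forming mucin. Its level was 26.1, 27.8, 29.7 and 39.2 CPM with the probe and 16.6, 17.4, 17.6 and 21.8 CPM with DMSO (log2 fold change 0.74 ± 0.11, SE, edgeR adjusted p = 0.00108). Probe replicate 4 and DMSO replicate 4 were the highest of their arms, as they were for NCBP1. Other genes with large increases were weakly expressed. DHRS2, a short-chain dehydrogenase, was at 7.12 against 4.10 CPM (0.79 ± 0.16, SE, adjusted p = 0.00593) and was called in all 8 leave-one-out fits. NOL3, an inhibitor of apoptosis (0.86), ITIH5, a matrix hyaluronan-binding protein (0.84), and GARIN1A (0.68) had probe means of 4.46 to 5.64 CPM. NOL3 lost its call without probe replicate 1 or 3, with an adjusted p up to 0.0636. ITIH5 lost it without probe replicate 4 (edgeR adjusted p = 0.0733), and GARIN1A without probe replicate 4 (0.0512) or DMSO replicate 3 (0.0613). ALPK3 (0.72, adjusted p = 0.0403) and DNAH2 (0.68, adjusted p = 0.0461) lost their calls in 6 and 7 of the 8 fits, without any 1 of the probe libraries and also without DMSO replicate 2 or 3 (ALPK3) or 1, 2 or 4 (DNAH2). NOL3 and TP53I3 overlap a gene on the opposite strand (KIAA0895L and FAM228B), from which reads may have been shared.

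p53 is a transcription factor that answers DNA damage, and large T antigen binds it in this line. Of 25 targets 3 were higher and none was lower (12% called, beside 5.11% of all genes called and 1.74% called higher), 23 were positive, and the median log2 fold change was 0.18. Over all genes 50.52% were positive. The median of the target list against DMSO was 0.0583 in light alone and 0.148 in T-REX. TP53I3, a quinone reductase, was at 19.4, 18.9, 20.7 and 25.2 CPM with the probe and at 14.1, 13.3, 8.27 and 16.1 CPM with DMSO. Every probe library lay above the DMSO ones (0.70 ± 0.15, SE, edgeR adjusted p = 0.0132), and the call was kept in all 8 leave-one-out fits. With the 8 libraries alone no p53 target was called. The others were the DNA damage recognition factors XPC (0.29, adjusted p = 0.0218) and DDB2 (0.27, adjusted p = 0.0229). XPC lost its call without probe replicate 2 or 4 or DMSO replicate 2, with an adjusted p up to 0.0677. DDB2 lost it without probe replicate 4 (edgeR adjusted p = 0.0772) or DMSO replicate 2 (0.0698).

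Several genes of BMP signalling were lower. BMPs are secreted ligands whose SMAD effectors induce ID proteins and inhibitory SMADs. Of 25 TGF-beta and BMP genes 1 was higher and 5 were lower (24% called, beside 5.11% of all genes called and 3.37% called lower). The median of the list against DMSO was -0.0737 with the probe alone, -0.0527 in light alone and -0.0683 in T-REX. The ligand BMP4 was at 16.4, 17.6, 16.7 and 18.8 CPM with the probe and at 25.97, 30.6, 36.6 and 25.9 CPM with DMSO. No probe library reached a DMSO library, and the DMSO libraries varied more (log2 fold change -0.78 ± 0.10, SE, edgeR adjusted p = 0.000374). BMP4 was called with the 8 libraries alone and in all leave-one-out fits. The second ligand, BMP2, was at 2.09 to 2.92 CPM against 3.65 to 4.02 CPM (-0.61, adjusted p = 0.0403) and lost its call without probe replicate 1, 2 or 4 or DMSO replicate 2 or 3, with an adjusted p up to 0.108.

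Among the targets of the pathway, ID2, an inhibitor of helix-loop-helix factors, was at 105.1 to 129.9 CPM with the probe and at 139.1 to 150.3 CPM with DMSO (-0.29 ± 0.057, SE, edgeR adjusted p = 0.00624). Its call was kept in all 8 leave-one-out fits, but with the 8 libraries alone BMP4 was the only list member called. The antisense transcript ID2-AS1 was lower as well (-0.64, adjusted p = 0.00794). The gene bodies overlap and the strand setting of the counting is not given in the sources used here, so the reads of both may be mixed. ID4 (-0.29, adjusted p = 0.0399) and the inhibitory SMAD6 (-0.38, adjusted p = 0.0237) lost their calls, ID4 without any 1 of the probe libraries or DMSO replicate 2 or 3 and SMAD6 without probe replicate 2 or 4 or DMSO replicate 3. SMAD3, a receptor-regulated SMAD of the TGF-beta branch, was higher at 91.4 against 73.9 CPM (0.31, adjusted p = 0.00867).

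HOX genes set position along the body axis and keep a fixed pattern in a line. Of 35 tested, 2 were lower and none was higher (5.71% called, beside 5.11% of all genes), and both were members of the most posterior group. The median of the list against DMSO was -0.0559 with the probe alone, -0.133 in light alone and -0.222 in T-REX. HOXD13 was at 105.9, 110.5, 105.8 and 104.9 CPM with the probe and at 142.5, 142.9, 197.2 and 141.1 CPM with DMSO. DMSO replicate 3 was far above the rest, and the other DMSO libraries were still above all probe libraries (-0.55 ± 0.082, SE, edgeR adjusted p = 0.00108). HOXA13 was at 71.0 against 94.4 CPM (-0.41, adjusted p = 0.00843). Both calls were kept in all 8 leave-one-out fits, but only 1 of the 2 genes was called with the 8 libraries alone.

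IRS4 is an insulin receptor substrate that is abundant in HEK293 cells. It was at 513.3, 540.0, 561.3 and 496.6 CPM against 660.0, 742.6, 707.6 and 658.2 CPM, with a gap between the arms (-0.39 ± 0.051, SE, edgeR adjusted p = 0.000369). The transcript AL035425.3 was at 623.6 to 650.4 CPM against 750.8 to 1052 CPM (-0.46, adjusted p = 0.00108). IRS4 overlaps AL035425.1 on the opposite strand.

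The cytoskeletal gene PFN1, which encodes the actin monomer binder profilin, was at 226.6, 252.3, 250.9 and 264.4 CPM with the probe and at 420.1, 341.3, 517.5 and 349.1 CPM with DMSO. The DMSO libraries were scattered but all were higher (-0.71 ± 0.11, SE, edgeR adjusted p = 0.00335). ACTB, cytoplasmic actin, was at 912.8 to 1026 CPM against 1105 to 1332 CPM (-0.31, adjusted p = 0.00347). Of 26 YAP and SRF targets, to which ACTB belongs, 1 was higher and 2 were lower (11.5% called, beside 5.11% of all genes). AMOTL2, an angiomotin, was the higher one (0.56, adjusted p = 0.0128). MID2, a microtubule-associated ubiquitin ligase, was at 109.3 to 121.5 CPM with the probe and at 138.9 to 161.6 CPM with DMSO (-0.35, adjusted p = 0.00108). PNP, the purine nucleoside phosphorylase, was at 42.1 to 45.2 CPM against 54.1 to 57.9 CPM (-0.38, adjusted p = 0.00108). Among the larger decreases, the secretory pathway protein YIF1A was at 29.05 to 45.3 CPM against 46.4 to 66.5 CPM (-0.62, adjusted p = 0.00607), and the small GTPase-like RABL3 was at 18.6 to 23.4 CPM against 26.2 to 40.1 CPM (-0.56, adjusted p = 0.00934). NGRN, a mitochondrial ribosome assembly factor (-0.68, adjusted p = 0.021), lost its call without probe replicate 2 (edgeR adjusted p = 0.0645). OSTN, SLC35A1 and AC068700.1 (-0.68, -0.52 and -0.63) lost theirs without probe replicate 1, 2 or 3 or DMSO replicate 3, and the latter pair also without probe replicate 4, with an adjusted p up to 0.21.

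**Figure D3:**
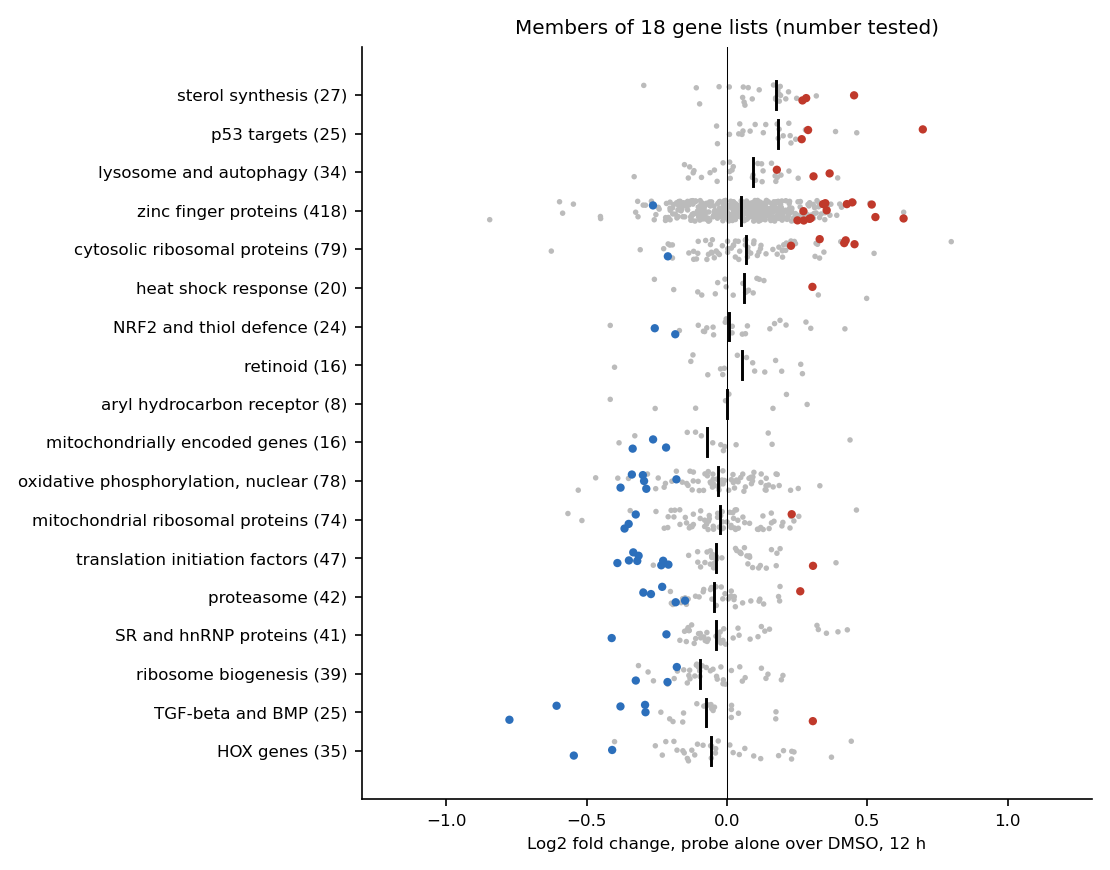
Log2 fold change, probe alone over DMSO at 12 h (x axis), of each tested member of 18 gene lists, with the number tested in brackets. Red and blue points were called higher and lower, grey points were not called, and the black bar is the median, which was 0.17 for sterol synthesis, 0.18 for p53 targets and -0.0965 for ribosome biogenesis.

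TARDBP encodes TDP-43, a splicing repressor. It was at 82.8, 78.0, 73.6 and 80.9 CPM with the probe and at 103.8, 101.7, 122.5 and 96.5 CPM with DMSO (-0.43 ± 0.066, SE, edgeR adjusted p = 0.00108). MPHOSPH6, a cofactor of the nuclear exosome, was at 34.96, 35.3, 34.4 and 31.8 CPM against 44.7, 46.3, 55.7 and 44.4 CPM (-0.48 ± 0.074, SE, adjusted p = 0.00108). In both genes the arms were apart, and both were called in every leave-one-out fit. The exosome, SR and hnRNP, snRNP and mRNA export lists had shares of called members near the 5.11% of all genes. Of 20 exosome and targeting factors MPHOSPH6 was the only one called (5%). Of 41 SR and hnRNP proteins 2 were lower (4.88%), the splicing activators SRSF2 (-0.41, adjusted p = 0.00136) and SRSF3 (-0.22, adjusted p = 0.0117), both in all leave-one-out fits. None of the 41 was called with the 8 libraries alone. Of 34 spliceosomal snRNP proteins 2 were higher (5.88%), and of 18 mRNA export factors 1 was higher (5.56%), the export receptor NXF1 (0.30, adjusted p = 0.0283). NXF1 lost its call without probe replicate 2, 3 or 4 or DMSO replicate 3, with an adjusted p up to 0.0937. None of 17 nonsense-mediated decay factors was called, and 3 of 20 snoRNA host genes (15%) were lower.

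Of 47 translation initiation factors 1 was higher and 8 were lower (19.1% called, beside 5.11% of all genes). The median of the list against DMSO was -0.0408 with the probe alone, -0.0393 in light alone and -0.0157 in T-REX. EIF3E, a subunit of the eIF3 scaffold, was at 531.5, 520.4, 528.5 and 509.6 CPM with the probe and at 622.9, 635.6, 752.8 and 597.2 CPM with DMSO. The probe libraries lay close together and all were below the DMSO libraries (-0.32 ± 0.055, SE, edgeR adjusted p = 0.00245). EIF2AK1, the heme-regulated kinase that inhibits eIF2, was at 235.6 to 249.1 CPM against 290.0 to 374.0 CPM (-0.39, adjusted p = 0.00136). EIF4EBP2, which sequesters the cap-binding factor eIF4E, was at 389.5 to 418.9 CPM against 477.3 to 586.1 CPM (-0.33, adjusted p = 0.00293). EIF4E itself (-0.31, adjusted p = 0.0146), EIF2B2, a subunit of the eIF2 exchange factor (-0.35, adjusted p = 0.00776), and EIF4G2, a scaffold of cap-independent initiation (-0.23, adjusted p = 0.00637), were lower too. EIF1B, a start-codon selection factor, was the higher one (0.31, adjusted p = 0.0103). The 6 lower factors named here and EIF1B were called in all 8 leave-one-out fits, but no initiation factor was called with the 8 libraries alone. The list thus held both factors that drive initiation and factors that restrain it.

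Of 79 cytosolic ribosomal protein genes 5 were higher and 1 was lower (7.59% called, beside 5.11% of all genes), with a median of 0.0665. RPS18 was at 461.3, 434.6, 479.8 and 370.0 CPM with the probe and at 386.0, 343.8, 238.0 and 334.3 CPM with DMSO (0.42, adjusted p = 0.0309). The arms overlapped, and DMSO replicate 3 was lowest. RPL37 (0.45), RPS19 (0.42) and RPS29 (0.33) also overlapped between the arms. RPS29 overlaps RN7SL1 on the opposite strand, which stood at 851.7 CPM in DMSO against 61.6 CPM for RPS29 and was itself called higher (log2 fold change 0.58, edgeR adjusted p = 0.0415), and the part of shared reads in the RPS29 value was not tested. RPS3A was the lower one (-0.21, adjusted p = 0.026). The calls of these 4 higher genes were each lost without probe replicate 1, 2 or 3, those of RPL37 and RPS29 also without DMSO replicate 3 and that of RPS29 without DMSO replicate 1. RPS3A lost its call without probe replicate 1 or 4 or DMSO replicate 2. Many ribosomal protein genes have processed pseudogenes that can share reads. Of 39 ribosome biogenesis genes none was higher and 3 were lower (7.69% called), with 30 negative and a median of -0.0965. None of the 39 was called with the 8 libraries alone. UTP15, a factor of small subunit processing, was lower in every leave-one-out fit (-0.32, adjusted p = 0.0114), whereas the nucleolar chaperone NPM1 (-0.21, adjusted p = 0.0274) and the RNA polymerase I subunit POLR1B (-0.18, adjusted p = 0.0499) lost their calls, NPM1 without probe replicate 1, 2 or 4 or DMSO replicate 2 or 3 and POLR1B without any 1 of the probe libraries or DMSO replicate 2 or 3. Of 46 RNA polymerase II and Mediator genes 3 were lower (6.52% called). Among them were MED14, the Mediator backbone (-0.28, adjusted p = 0.00513), and POLR2K (-0.34, adjusted p = 0.0066).

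Of 16 mitochondrially encoded genes 3 were lower (18.8% called, beside 5.11% of all genes called and 3.37% called lower). None of the 16 was called with the 8 libraries alone. The median log2 fold change of the list against DMSO was -0.0711 with the probe alone, -0.182 in light alone and -0.279 in T-REX. MT-ND2, a subunit of complex I, was at 7358, 7036, 6959 and 7003 CPM with the probe and at 9129, 8564, 10467 and 7634 CPM with DMSO (-0.34 ± 0.067, SE, edgeR adjusted p = 0.0067). The probe libraries lay within a narrow band below the DMSO libraries. MT-CO3 (-0.26, adjusted p = 0.0363) and MT-ND4 (-0.22, adjusted p = 0.0388) overlapped between the arms and lost their calls without probe replicate 2, 3 or 4 or DMSO replicate 2 or 3, and MT-CO3 also without DMSO replicate 1. Of 78 nuclear genes of oxidative phosphorylation 6 were lower and none was higher (7.69% called). Their median against DMSO was -0.032 with the probe alone, -0.103 in light alone and -0.158 in T-REX. SDHC, an anchor of complex II, was at 90.1 to 99.1 CPM against 107.9 to 137.3 CPM (-0.34, adjusted p = 0.00332). Of 74 mitochondrial ribosomal proteins 3 were lower and 1 was higher (5.41% called). MRPL42 was at 260.4 to 292.9 CPM against 326.3 to 437.9 CPM (-0.37, adjusted p = 0.00436), and MRPS15 was at 50.4 to 58.5 CPM against 62.5 to 73.0 CPM (-0.33, adjusted p = 0.00403). The proteasome list (42 tested) held 1 higher and 5 lower genes (14.3% called), none of them called in all 8 leave-one-out fits.

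Genes that answer retinoids or aryl hydrocarbons were not called. None of 16 retinoid genes and none of 8 aryl hydrocarbon receptor genes passed the test, while 2 retinoid genes were higher and 1 was lower at an unadjusted p at most 0.05. RARB, a retinoic acid receptor induced by its own ligand, was at 49.3, 59.8, 49.8 and 52.3 CPM with the probe and at 38.8, 43.9, 51.4 and 42.0 CPM with DMSO. DMSO replicate 3 alone lay within the probe range (0.26 ± 0.083, SE, edgeR adjusted p = 0.0624), and without it RARB was called (0.34, edgeR adjusted p = 0.00941). RARB stood at 26.5 CPM in light alone and 21.7 CPM in T-REX. TIPARP, a receptor target that ADP-ribosylates proteins, was at 54.0 to 62.2 CPM and 54.7 to 63.1 CPM (-0.0053, adjusted p = 0.971). Of 28 hypoxia genes 1 was higher and 2 were lower (10.7% called, beside 5.11% of all genes). In this list 14 were positive and 14 negative, with a median of 0.0026. None of the 28 was called with the 8 libraries alone. CITED2, a competitor of HIF for its coactivator, was lower (-0.50, adjusted p = 0.0129) and kept its call in all 8 leave-one-out fits. HIF1A (-0.25, adjusted p = 0.0269) lost it without any 1 of the probe libraries or DMSO replicate 2 or 3. MYC was lower (-0.28, adjusted p = 0.0146), and its call was lost without probe replicate 1 (edgeR adjusted p = 0.0529).

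Zinc finger genes were the largest list. Of 418 tested 13 were higher and 1 was lower, with a median of 0.0516. This was 3.35% called, beside 5.11% of all genes called, 1.74% called higher and 3.37% called lower. With the GC and length trend of each library removed, 34 were called higher and 4 lower, in a fit that called more genes in general (509 of all 14685 higher and 832 lower). ZNF79 (0.63, adjusted p = 0.0117), ZNF608 (0.27, adjusted p = 0.0142) and ZNF33B (0.25, adjusted p = 0.0073) were called in all 8 leave-one-out fits. With the 8 libraries alone no zinc finger gene was called. The lower one was ZNF614 (-0.26, adjusted p = 0.0492), which lost its call without any 1 of the probe libraries or DMSO replicate 2 or 3.

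The direction of the calls went with base composition. The median GC content of a gene's transcript was 50.61% for genes called higher, 42.27% for genes called lower and 47.17% over all genes. In the quintile of genes poorest in GC 0.446% were called higher and 5.94% lower, while in the richest quintile 1.72% were called higher and 0.893% lower. The libraries themselves differed in this respect. The median log2 deviation of GC-rich minus GC-poor genes was 0.233, -0.143, -0.466 and -0.0046 in DMSO replicates 1 to 4, and it lay between -0.044 and 0.108 in the probe libraries. The DMSO libraries thus spanned a wider range than any other arm. With the GC and length trend of each library removed, 1341 genes were called (509 higher and 832 lower), among them 712 of the 751. The part of base composition in the other calls was not tested.

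**Figure D4:**
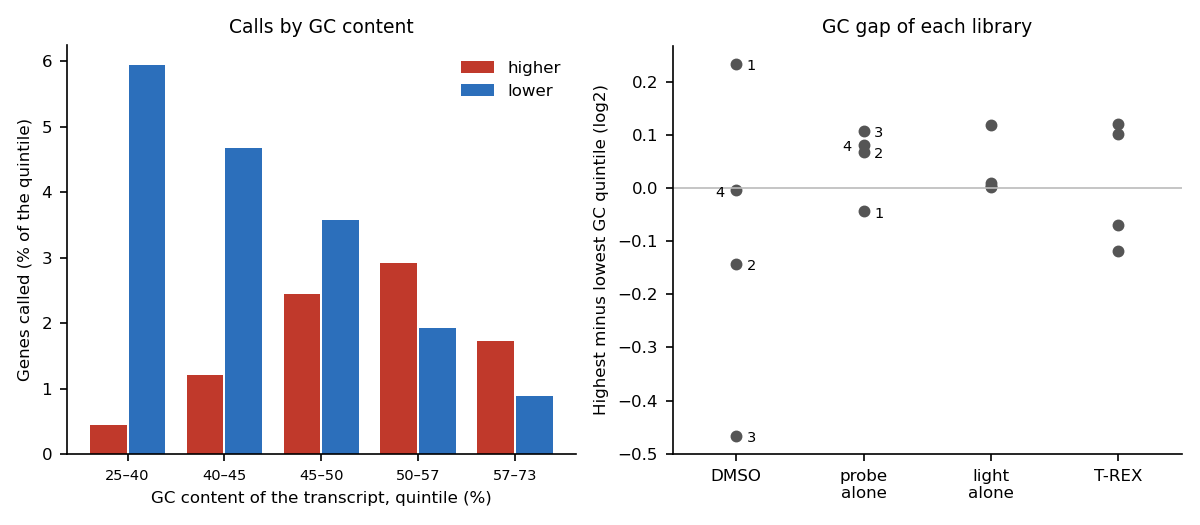
Left, percent of genes called higher (red) and lower (blue) in each quintile of genes by GC content of the transcript (x axis, %). Right, the median log2 deviation of the GC-richest minus the GC-poorest quintile in each library, with replicate numbers for the DMSO and probe alone arms. DMSO replicate 3 was lowest at -0.466.

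At 3 and 6 h the same comparison gave 1 and 4 called genes. Those libraries are separate from the 12 h ones. Of the 256 genes called higher at 12 h 196 were positive at 3 h, and of the 495 called lower 412 were negative, where 47.39% of all genes were positive and 52.61% negative. At 6 h the counts were 144 and 186, where 48.14% were positive and 51.86% negative. The median log2 fold change of the genes called lower at 12 h was -0.0605 at 3 h and 0.0209 at 6 h. NCBP1 was at 0.25 ± 0.12 (SE) at 3 h and 0.63 ± 0.14 at 6 h, neither of them called (edgeR adjusted p = 0.986 and 0.254). ABCA1 was at 0.16 and 0.35 and HMGCS1 at 0.24 and 0.27, none of them called at these times. The sterol list had medians of 0.127 at 3 h, 0.121 at 6 h and 0.173 at 12 h. RARB was called at 3 h (0.54, edgeR adjusted p = 0.0462) and at 6 h (0.60, adjusted p = 0.00072). IDI1 (0.35) and INSIG1 (0.36) were called at 6 h.

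**Figure D5:**
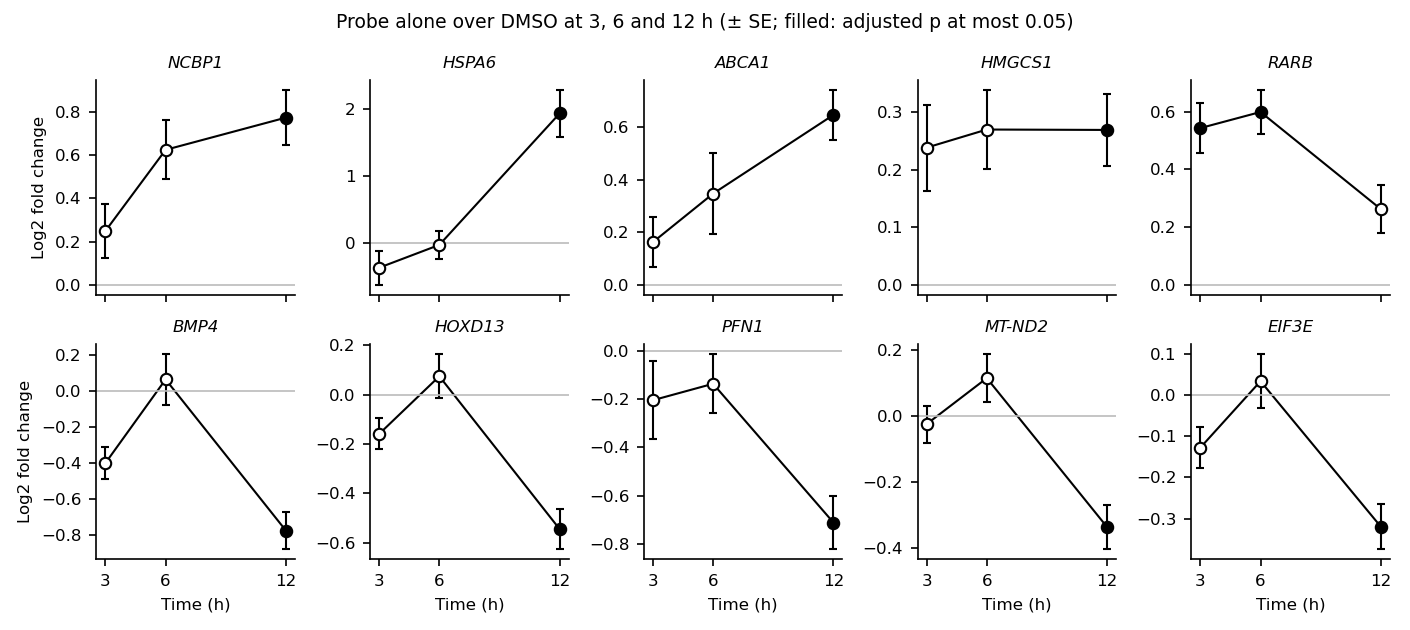
Log2 fold change, probe alone over DMSO, of 10 genes at 3, 6 and 12 h (y axis, ± SE, 4 libraries per arm and time, separate fits per time). Filled points have an adjusted p at most 0.05. HSPA6, BMP4, HOXD13 and EIF3E were called at 12 h alone, and RARB at 3 and 6 h.

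The difference between times was tested itself, as an interaction over all 48 libraries. Between 12 and 3 h it was called for 1 gene, HSPA6 (0.00681% of genes, edgeR adjusted p = 0.0316), and 1308 genes had an unadjusted p at most 0.05. The call was lost without DMSO replicate 2 (0.144) or 3 (0.0998) and without probe replicate 2 (0.0555), 3 (0.0669) or 4 (0.148) as edgeR adjusted p. Between 12 and 6 h it was called for 112 genes (0.763%). The probe effect was higher at 12 h in 18 of them and lower in 94, and 94 of the 112 were also called at 12 h. BMP4 went from 0.06 at 6 h to -0.78 at 12 h (edgeR adjusted p = 0.0141) and HOXD13 from 0.07 to -0.55 (0.0141). For MRPS15 and the olfactory receptor pseudogene OR7E14P the probe effect was likewise lower at 12 h than at 6 h. It was higher at 12 h than at 6 h for HSPA6 (edgeR adjusted p = 0.021) and for WASHC2A, a subunit of the endosomal WASH complex with a near-identical copy. The same held for LAMA3, a laminin chain, SPG7, a mitochondrial protease, and SYK, a kinase. The 12 h call of SYK was lost without probe replicate 1 (edgeR adjusted p = 0.0514) or 3 (0.0611). The 112 calls rested on DMSO replicate 3 at 12 h. Without it 1 gene was called, while BMP4 had an edgeR adjusted p of 0.0731 and HSPA6 of 0.0895. Without DMSO replicate 1 or 4 there were 370 and 468 calls, without DMSO replicate 2 there were 71, and without 1 probe library there were 33 to 66.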

How the data were processed

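RNA of 48 libraries was sequenced as stranded paired-end libraries. The authors deposited raw counts per gene, one table per time point, log2 CPM and, per library, 2 scores of unwanted variation (RUV factors). The study's reporting form lists cutadapt, TopHat and Cufflinks for its RNA-seq, and the program that made the gene counts, its strand setting and the genome build are not given in the sources used here. The labels name a poly(A) kit, while the study's methods describe ribosomal RNA depletion. The RUV factors at 12 h served as covariates in 1 alternative, and the separate deposited tables of expression scores transformed by RUV were not used. Genes and lists were chosen with earlier results of these data known. Counts of the 16 libraries at 12 h (26799819 to 37099535 per library) were fitted with edgeR 4.0.16 (R 4.3.3, TMM, filterByExpr, which removed 0 genes, robust quasi-likelihood F test) and probe alone was contrasted with DMSO. Calls had a Benjamini-Hochberg adjusted p at most 0.05. Interactions used all 48 libraries. Named genes were NCBP1, RARB, TIPARP, IDI1 and INSIG1, the 10 largest called changes per direction without overlap at a mean of at least 100 counts, calls kept in all leave-one-out fits and with 8 libraries, up to 6 called members per list and direction, and up to 5 interaction calls per direction. Symbols and transcripts came from GENCODE 29 (14556 of 14685 identifiers) and promoter sequences from RefSeq. Alternatives were DESeq2 1.42.0, limma 3.58.1, RLE, other filters, RUV covariates, a replicate block, only 8 libraries, leaving out each library, and, chosen after seeing the data, a GC and length correction and leaving out DMSO replicates 1 and 3 together. The scripts were tested on simulated data. Replicate counts differed by more than sampling noise (chi-square per degree of freedom 5.96 to 38). Some genes are not reported here.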

Additional observations from a re-analysis of the deposited data

Results flagged for a closer look

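In groups of 4 libraries, 1 library was set apart by a wide gap to its nearest neighbour for 13 of 186 groups examined (2 arms for each gene and share described), and chance gives about 1 in 20. In the probe alone arm NCBP1 reached 75760 CPM in replicate 4, against 54210 to 57870 CPM in the others, and ABCA1 reached 101.3 CPM in the same replicate, against 74.3 to 76.6 CPM. EIF4E (95.4 CPM) and NGRN (20.7 CPM) stood apart in probe replicate 2, TXNRD1 (77.0 CPM) in probe replicate 3, and POLR2K (28.8 CPM) in probe replicate 1. In the DMSO arm the library that stood apart was replicate 3 each time, and it was the highest, for HOXD13 (197.2 CPM), EIF4EBP2 (586.1 CPM), EIF4E (142.4 CPM), SMAD6 (29.2 CPM), MPHOSPH6 (55.7 CPM), OSTN (8.90 CPM) and AC068700.1 (10.7 CPM).

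The probe effect differed between 12 and 3 h for 1 gene, HSPA6 (2.27 on the log2 scale, edgeR adjusted p = 0.0316), and between 12 and 6 h for 112 genes. Of the genes described, the difference between 12 and 6 h was 1.95 for HSPA6, 0.56 for SYK, 0.43 for SPG7, 0.32 for WASHC2A and 0.29 for LAMA3. It was -1.52 for OR7E14P, -0.84 for BMP4, -0.64 for YIF1A, -0.62 for HOXD13, -0.61 for RABL3, -0.50 for EIF2AK1, -0.45 for MT-ND2 and -0.42 for EIF2B2. It was -0.41 for MRPS15 and EIF4EBP2, -0.40 for MRPL42, -0.37 for SDHC and MID2, -0.36 for EIF3E, -0.34 for MED14, -0.33 for PNP and -0.28 for EIF4G2. The edgeR adjusted p ran from 0.0141 to 0.0477 over these. None of these genes was called in the difference from 6 h without DMSO replicate 3 at 12 h.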

How the results depend on the processing

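The number of called genes, 751 (256 higher and 495 lower), depended on the fit, and no called gene reversed. DESeq2 called 1323 (475 and 848), 2 RUV factors as covariates 3298 (1523 and 1775), the GC and length correction 1341 (509 and 832), the 8 libraries alone 14 (4 and 10), and the fit without DMSO replicates 1 and 3 together 339 (108 and 231). Leaving out 1 probe or DMSO library gave 325 (without probe replicate 1) to 1758 (without DMSO replicate 4) called genes, 98 to 665 higher and 227 to 1093 lower, and leaving out 1 light alone or T-REX library gave 589 to 642. The 14 genes called with the 8 libraries alone were all among the 751. RLE scaling (753), no filter (751), the filter at 100 counts (734), limma-trend (746), voom weights (872) and NCBP1 left out (740) stayed within 1.5 times. NCBP1 was not called without DMSO replicates 1 and 3 together (0.64, edgeR adjusted p = 0.1). TIPARP, near 0, changed sign with the filter at 100 counts (0.0045), with the GC correction (0.024), without DMSO replicate 2 (0.032) and without probe replicate 1 (0.033) or 2 (0.013), and over the fits without 1 library it ran from -0.037 to 0.033. The share of the 10 highest genes reversed to -0.748 outside NCBP1.

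Replicate numbers did not pair the arms (correlations of -0.239, 0.0485, -0.127 and 0.172), and with the replicate block 643 genes were called (227 higher and 416 lower), 602 of them among the 751. The interaction with 3 h gave 0 genes with the block and with only 16 libraries, and 0 to 5 without 1 library. The interaction with 6 h gave 157 with the block, 7 with only 16 libraries, and 1 (without DMSO replicate 3) to 468 (without DMSO replicate 4) without 1 library. The causes were not tested. HSPA6 rests on as few as 13 counts in a library.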
